A study of Mus musculus with 36 samples.

Results

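The genes described here are 44 genes of G2/M and mitosis, the stretch of the cell cycle from the end of DNA copying to the separation of the daughter cells. They were taken by name from the deposited table of normalised expression, where all 44 were found among the 16416 genes kept, and all 44 were among the 11656 genes that passed the filter on low values (at least 10 on the linear scale in at least 3 libraries). RNA was sequenced in 36 libraries from mouse macrophages derived from bone marrow, cells grown for 7 days from bone marrow on plates they do not stick to, in RPMI medium with 10% FCS and 10% supernatant of L929 cells, a source of the macrophage growth factor M-CSF. The cells carried wild-type Tnip2 (WT) or the D310N point mutant of Tnip2, and were unstimulated (0 min) or had 100 ng/ml lipopolysaccharide (LPS) for 30, 60, 120, 240 or 360 min, with 3 libraries in each of the 12 groups. Every group, controls included, shared the same culture, and the labels give neither strain, sex nor age, nor whether replicates came from separate mice, so the p-values measure the spread between these libraries. The table's header writes the mutant as D309N and the sample titles as D310N, the name used here.

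Mitosis is driven by cyclin-dependent kinase 1 with its B-type cyclins, and ended when the anaphase-promoting complex (APC/C) marks cyclin B and securin for destruction. Genes needed for it are transcribed together late in the cycle by the MuvB core with B-Myb and FoxM1, and held silent in resting cells when the same core sits in the DREAM repressor complex. Macrophages grown in M-CSF divide, and LPS is known to stop their division.

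Values are log2 values as deposited, on a transformation that the sources used here do not name. If that step shrank low values towards each other, as some do, differences of weakly expressed genes would be understated. The values are not known to be per length, so levels are compared between libraries and never between genes. Differences are in log2 units with their standard error (SE) from limma, and "called" means an adjusted p under 0.05 (Benjamini-Hochberg, over all 11656 genes of a comparison). The read depth is unknown. In bulk RNA of this kind, fewer dividing cells and less mitotic RNA per cell cannot be told apart.

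Promoters of 38 of the 44 members were in the RefSeq table (GRCm38.p6), each 250 bases before to 50 bases after a gene start. The 7 below are shown because their genes carry results described further on. They also show both arrangements found, with and without TTTGAA, the core of the CHR. The CHR is the element through which MuvB complexes bind. Each line holds the last 200 bases before the start, on the gene's own strand, 5′ to 3′. Capitals mark TTTGAA (the CHR core) or its reverse complement TTCAAA, and CCAAT (the box bound by NF-Y) or its reverse complement ATTGG.
Cdk1: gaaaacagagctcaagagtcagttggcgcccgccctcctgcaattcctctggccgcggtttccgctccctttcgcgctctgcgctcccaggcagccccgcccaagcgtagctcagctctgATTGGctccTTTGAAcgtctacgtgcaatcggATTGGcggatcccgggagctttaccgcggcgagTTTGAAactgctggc
Cdc20: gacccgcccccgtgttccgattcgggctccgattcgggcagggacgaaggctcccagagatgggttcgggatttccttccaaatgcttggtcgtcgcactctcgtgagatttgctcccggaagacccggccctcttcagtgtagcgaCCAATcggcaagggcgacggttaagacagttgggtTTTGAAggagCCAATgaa
Ube2c: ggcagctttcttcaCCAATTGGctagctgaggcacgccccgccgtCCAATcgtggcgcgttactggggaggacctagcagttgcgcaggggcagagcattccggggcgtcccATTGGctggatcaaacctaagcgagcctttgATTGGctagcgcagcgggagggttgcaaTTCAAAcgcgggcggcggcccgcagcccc
Kif11: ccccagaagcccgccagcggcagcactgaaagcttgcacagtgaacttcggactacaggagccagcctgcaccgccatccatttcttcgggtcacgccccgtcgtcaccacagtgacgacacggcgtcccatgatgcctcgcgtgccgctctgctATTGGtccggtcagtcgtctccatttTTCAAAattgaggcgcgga
Top2a: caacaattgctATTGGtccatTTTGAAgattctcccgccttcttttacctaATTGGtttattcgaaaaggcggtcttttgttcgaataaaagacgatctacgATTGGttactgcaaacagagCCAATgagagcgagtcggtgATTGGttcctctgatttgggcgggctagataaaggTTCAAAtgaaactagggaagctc
Ccnb1: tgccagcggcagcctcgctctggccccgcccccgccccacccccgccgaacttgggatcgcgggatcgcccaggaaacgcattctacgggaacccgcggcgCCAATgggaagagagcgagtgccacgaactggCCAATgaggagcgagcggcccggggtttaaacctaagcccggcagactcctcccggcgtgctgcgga
Mki67: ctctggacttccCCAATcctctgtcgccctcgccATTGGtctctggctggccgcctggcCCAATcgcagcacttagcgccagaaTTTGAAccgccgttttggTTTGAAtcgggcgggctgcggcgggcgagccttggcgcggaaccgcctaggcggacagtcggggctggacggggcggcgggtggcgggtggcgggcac
Coordinates of these windows on GRCm38.p6 are chr10:69352913-69353112 for Cdk1 (minus strand), chr4:118437344-118437543 for Cdc20 (minus strand), chr2:164769729-164769928 for Ube2c (plus strand), chr19:37376182-37376381 for Kif11 (plus strand), chr11:99024190-99024389 for Top2a (minus strand), chr13:100786487-100786686 for Ccnb1 (minus strand) and chr7:135716380-135716579 for Mki67 (minus strand). Counted in these 200 bases on either strand, Cdk1, Top2a and Mki67 hold 2 TTTGAA matches each. Cdc20, Ube2c and Kif11 hold 1 each, and Ccnb1 holds 0. CCAAT boxes number from 1 in Kif11 to 5 in Ube2c and Top2a.

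The CHR core TTTGAA, on either strand, was present in the 300-base window of 29 of the 38 members (76.3%), against 20.2% of the 27025 genes with a promoter in the table and 14.3% of the 8996 tested genes with one. CCAAT on either strand was present in 29 of 38 members (76.3%), against 41.1% and 43.2%. Both occurred together in 26 of 38 members (68.4%), against 8.97% and 7.13%. A CCAAT and an ATTGG can overlap and then count as 2 matches, as in Ube2c. Of 39 CHR matches in the 40 promoter windows of these 38 members, 30 lay within 50 bases of the gene start. Ect2 and Prc1 list 2 starts each with overlapping windows, so their shared sites were counted once per start. The share of such matches near the start in other genes was not counted. The 9 members with a promoter but no TTTGAA were Ccnb1, Mybl2, Melk, Bub1, Cenpe, Nuf2, Nusap1, Birc5 and Ncaph. Their promoters may hold another form of the CHR, which was not looked for. A match is a description of the letters and was not tested for binding.

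**Figure D1:**
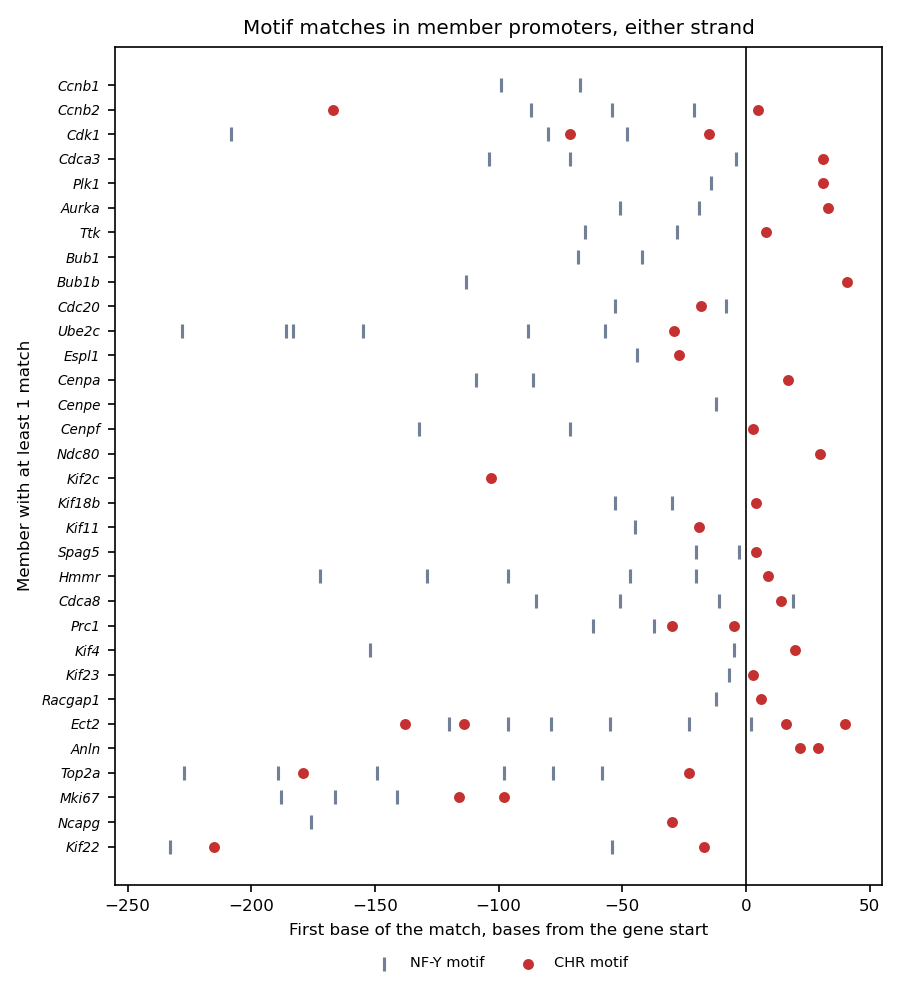
Position of each match to the CHR core (red circles) and to the NF-Y box (grey ticks), either strand, in the promoters of members with at least 1 match. The x axis gives the first base of the match in bases from the gene start (vertical line). Of the 39 CHR matches 30 lie within 50 bases of it, with shared sites of Ect2 and Prc1 counted once per listed start.

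Before LPS, RNA of all 44 mitotic genes was lower in D310N than in WT macrophages. The members' median difference was -0.85, which is 55.3% of the WT level, against a median of -0.01 over all tested genes. All 44 were called lower and 0 higher, where 7.09% of all tested genes were called lower and 3.64% higher. In every one of the 44, the 3 D310N libraries lay below the 3 WT libraries, which held for 19.1% of tested genes. Differences ran from -1.26 for Kif18b to -0.42 for Cenpa.

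Among the cyclins, Cdk1 and the transcription factors, 7 of 7 were called lower at 0 min with a median of -0.92. Ccnb1, the B-type cyclin that drives entry into mitosis, stood at 8.50, 8.63 and 8.59 in WT and 7.39, 7.37 and 7.51 in D310N. Ccnb2, the second mitotic B-type cyclin, stood at 8.24, 8.13 and 8.18 in WT and 7.16, 6.97 and 7.15 in D310N. Both cyclins were lower in every D310N library by more than the spread within either group, with differences of -1.15 ± 0.09 and -1.09 ± 0.14. Cdk1, their kinase partner, stood at 8.996, 9.01 and 9.03 in WT and 8.39, 8.28 and 8.42 in D310N. Its difference of -0.64 ± 0.11 (adjusted p = 0.000149) was smaller than those of its cyclins. Foxm1, a transcription factor of G2/M genes, stood at 8.46, 8.35 and 8.33 in WT and 7.27, 7.54 and 7.58 in D310N, a difference of -0.92 ± 0.13 (adjusted p = 8.0e-06). The groups did not overlap for either gene. Ccna2, the cyclin of S and G2 phase, gave -0.89 ± 0.17. Mybl2, which encodes B-Myb, gave -0.62 ± 0.13, and Cdca3, an adaptor for destruction of the mitosis inhibitor Wee1, gave -0.95 ± 0.15.

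The mitotic kinases were lower in 6 of 6, with a median of -0.83. Plk1, a kinase of mitotic entry and spindle poles, stood at 7.76, 7.76 and 7.66 in WT and 6.76, 6.57 and 6.83 in D310N (-1.01 ± 0.15). Aurkb, the kinase of the chromosomal passenger complex, stood at 8.01, 8.06 and 8.08 in WT and 7.08, 7.09 and 7.29 in D310N (-0.90 ± 0.12). Every D310N library was below every WT library for both kinases. Aurka, a centrosome and spindle kinase, gave -0.76 ± 0.13. The checkpoint kinase Ttk gave -0.67 ± 0.14, and the kinases Pbk and Melk, marks of dividing cells, gave -0.84 ± 0.17 and -0.83 ± 0.12.

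Of the spindle checkpoint, APC/C and separase genes, 5 of 5 were lower, with a median of -0.83. Bub1b, the checkpoint protein BubR1, stood at 8.86, 8.92 and 8.89 in WT and 7.99, 8.02 and 8.16 in D310N (-0.83 ± 0.13). Cdc20, the activator of the APC/C that the checkpoint holds back, stood at 7.65, 7.58 and 7.47 in WT and 6.67, 6.49 and 6.54 in D310N (-0.998 ± 0.11). Ube2c, the ubiquitin-conjugating enzyme of the APC/C, stood at 8.32, 8.04 and 8.11 in WT and 7.20, 7.08 and 7.22 in D310N (-0.99 ± 0.13). The groups were separate for all 3. Bub1, the kinase that recruits BubR1, gave -0.74 ± 0.16, and Espl1, the separase that cuts cohesin at anaphase, gave -0.82 ± 0.10.

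Kinetochore and centromere genes, a group that here and below includes Kif18b, were lower in 7 of 7, with a median of -0.85. This group as listed held both the largest and the smallest difference of the 44. Kif18b, a kinesin that acts on the plus ends of astral microtubules (chr11:102905529-102925124, minus strand, GRCm38), stood at 7.03, 6.99 and 7.08 in WT and 5.75, 5.91 and 5.66 in D310N (-1.26 ± 0.12, adjusted p = 1.0e-08). Ndc80, a microtubule-binding subunit of the outer kinetochore, stood at 8.24, 8.49 and 8.35 in WT and 7.43, 7.51 and 7.60 in D310N (-0.85 ± 0.09). Its complex partner Nuf2 gave -0.80 ± 0.13. Cenpa, the histone H3 variant of centromeres, stood at 8.11, 8.16 and 8.23 in WT and 7.71, 7.77 and 7.77 in D310N (-0.42 ± 0.12, adjusted p = 0.0199). Even for Cenpa the groups of libraries did not overlap, but its call was lost when any of 4 single libraries, 2 of each genotype, was left out (adjusted p from 0.0541 to 0.0858). Cenpf, a large kinetochore-associated protein, gave -0.99 ± 0.13, Cenpe, the kinetochore kinesin, gave -0.72 ± 0.09, and Kif2c, a microtubule-depolymerising kinesin, gave -1.06 ± 0.16.

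Spindle assembly genes were lower in 5 of 5, with a median of -0.89. Kif11, the kinesin that pushes spindle poles apart, stood at 9.20, 9.35 and 9.28 in WT and 8.29, 8.39 and 8.49 in D310N (-0.89 ± 0.12). Tpx2, which activates Aurora A and nucleates spindle microtubules, stood at 9.48, 9.61 and 9.63 in WT and 8.93, 8.88 and 8.93 in D310N (-0.66 ± 0.10). Both were lower in all D310N libraries. Nusap1 and Spag5, microtubule proteins of the spindle, gave -0.90 ± 0.12 and -0.91 ± 0.11, and Hmmr, a spindle pole protein, gave -0.86 ± 0.12.

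Passenger, midzone and cytokinesis genes were lower in 9 of 9, with a median of -0.88. Birc5, the passenger subunit survivin, stood at 8.43, 8.24 and 8.15 in WT and 7.26, 7.38 and 7.54 in D310N (-0.88 ± 0.13). Prc1, the bundler of midzone microtubules, stood at 9.20, 9.30 and 9.27 in WT and 8.25, 8.10 and 8.39 in D310N (-1.01 ± 0.13). Neither gene had overlapping groups. The kinesins Kif23, Kif20a and Kif4, which build the midzone, gave -1.01 ± 0.13, -0.94 ± 0.11 and -0.88 ± 0.10. Racgap1, partner of Kif23 in centralspindlin, gave -0.85 ± 0.11, Ect2, the RhoA activator of the cleavage furrow, gave -0.73 ± 0.11, and Anln, a scaffold of the contractile ring, gave -0.93 ± 0.16. Cdca8, the passenger subunit borealin, had the smallest difference of the 9 at -0.62 ± 0.10.

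Chromosome structure genes were lower in 5 of 5, with a median of -0.77. Top2a, the topoisomerase that untangles sister chromatids, stood at 10.9965, 11.15 and 11.06 in WT and 10.23, 10.27 and 10.40 in D310N (-0.77 ± 0.15, adjusted p = 0.000516). Mki67, which encodes the proliferation marker Ki-67 at the surface of mitotic chromosomes, stood at 11.11, 11.20 and 11.27 in WT and 10.28, 10.37 and 10.52 in D310N (-0.81 ± 0.12). WT exceeded D310N in every library for both. The condensin I subunits Ncapg and Ncaph gave -0.74 ± 0.15 and -0.67 ± 0.12, and Kif22, a chromosome-arm kinesin, gave -0.78 ± 0.15.

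The genotype difference was called in all members at the early LPS times, and its median was nearer 0 at the late ones. At 30 min 44 of 44 were called lower and 0 higher (7.78% and 4.43% of tested genes), with a median of -0.85 and a range from -1.15 for Ccnb1 to -0.40 for Cenpa. At 60 min 44 of 44 were lower and 0 higher (7.96% and 4.89%), with a median of -0.81, and at 120 min 44 of 44 and 0 (9.72% and 7.94%), with a median of -0.74. No member was higher at these times at an unadjusted p under 0.05 either. Of the 11656 tested genes 2813, 2898 and 3453 passed in either direction. At all 3 times the D310N libraries were below the WT libraries in 44 of 44 members, which held for 18.7%, 19.6% and 16.1% of tested genes. Ube2c had the largest difference at 60 min, from 8.36, 8.33 and 8.08 in WT to 7.24, 6.79 and 7.26 in D310N (-1.16 ± 0.13). Mki67 had the smallest, from 11.91, 11.96 and 12.09 to 11.59, 11.59 and 11.65 (-0.37 ± 0.12, adjusted p = 0.0417). At 120 min Ccnb2 was the most different, from 7.99, 8.03 and 7.96 to 7.03, 6.84 and 7.16 (-0.98 ± 0.14), and Aurka the least, from 7.56, 7.47 and 7.53 to 7.26, 6.94 and 7.20 (-0.39 ± 0.13). Each of these 4 genes had separate groups of libraries. The calls of Mki67 at 60 min and Aurka at 120 min were lost when single libraries of their groups were left out, with adjusted p up to 0.158 without WT at 60 min replicate 3 and 0.166 without D310N at 120 min replicate 2.

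At 240 min 27 of 44 were called lower in D310N and 0 higher (10.0% and 6.98% of tested genes), with a median of -0.45, or 73.2% of WT. At an unadjusted p under 0.05, 37 were lower and 0 higher, where 3578 of the 11656 tested genes passed in either direction. The libraries did not overlap in 37 members (21.6% of tested genes), and overlapped in Ttk, Melk, Bub1b, Cdc20, Cenpf, Kif20a and Kif23. By role, 6 of 7 cyclins and factors, 1 of 6 kinases, 2 of 5 checkpoint genes, 6 of 7 kinetochore genes, 4 of 5 spindle assembly genes, 7 of 9 midzone genes and 1 of 5 chromosome structure genes were called. Kif4 was the most different, at 9.02, 9.01 and 8.74 in WT and 7.76, 8.06 and 7.86 in D310N (-1.03 ± 0.10). Bub1b stood at the other end, at 6.66, 6.84 and 6.82 in WT and 6.77, 6.90 and 6.96 in D310N (0.11 ± 0.13, adjusted p = 0.621), with overlapping libraries. Cdc20 likewise overlapped, at 5.35, 5.16 and 5.13 in WT and 5.20, 5.24 and 5.01 in D310N (-0.07 ± 0.11, adjusted p = 0.743). Leaving out 1 library at a time moved the count of 27 to between 19, without WT at 240 min replicate 2, and 38, without WT at 360 min replicate 1. That last library takes part in this comparison only through the spread shared by all groups.

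At 360 min 32 of 44 were called lower and 0 higher (9.52% and 6.80%), with a median of -0.49, and 24 had separate libraries (12% of tested genes, 1398 of 11656). This time rests on a WT group that was wider than the others. The mean of the 44 members was 6.99 in WT replicate 1, close to the 7.04, 7.07 and 6.98 of WT at 240 min, and 6.40 and 6.34 in replicates 2 and 3. WT replicate 1 lay above its group's mean in 43 of 44 members, all but Tpx2. The median SD of the members was 0.422 in that group and between 0.0425 and 0.146 in the other 11, and over all tested genes 0.144 against 0.0476 to 0.0922. Without that library 17 of 44 were called lower (9.99% of tested genes), with a median of -0.25, while on average over all times 44 of 44 were called lower (27.4%). Ccnb2, Plk1, Aurkb, Kif11 and Top2a, for example, then gave -0.27, -0.13, -0.28, -0.22 and -0.16, none of them called. In a fit of the 6 libraries at 360 min alone 0 of 44 were called, as against 32. The share of all tested genes called in that fit is not given here. The 0 is therefore not read as a result about the members.

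Other members kept their call at 360 min with and without that library. Kif4 stood at 8.76, 8.40 and 8.28 in WT and 7.31, 7.55 and 7.39 in D310N (-1.07 ± 0.10, and -0.93 ± 0.09 without WT replicate 1). Birc5 stood at 7.32, 6.76 and 6.45 in WT and 5.95, 6.06 and 6.07 in D310N (-0.81 ± 0.13, and -0.58 ± 0.12). Ube2c stood at 7.13, 6.86 and 6.77 in WT and 6.16, 6.17 and 6.28 in D310N (-0.72 ± 0.13, and -0.61 ± 0.13). In these genes every D310N library was below every WT library. Ndc80 was also separate, at 6.44, 6.35 and 6.13 in WT and 5.54, 5.83 and 5.83 in D310N (-0.57 ± 0.09, and -0.51 ± 0.10). Tpx2 and Espl1 gave 0.18 ± 0.10 and 0.16 ± 0.10, neither of them called.

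**Figure D2:**
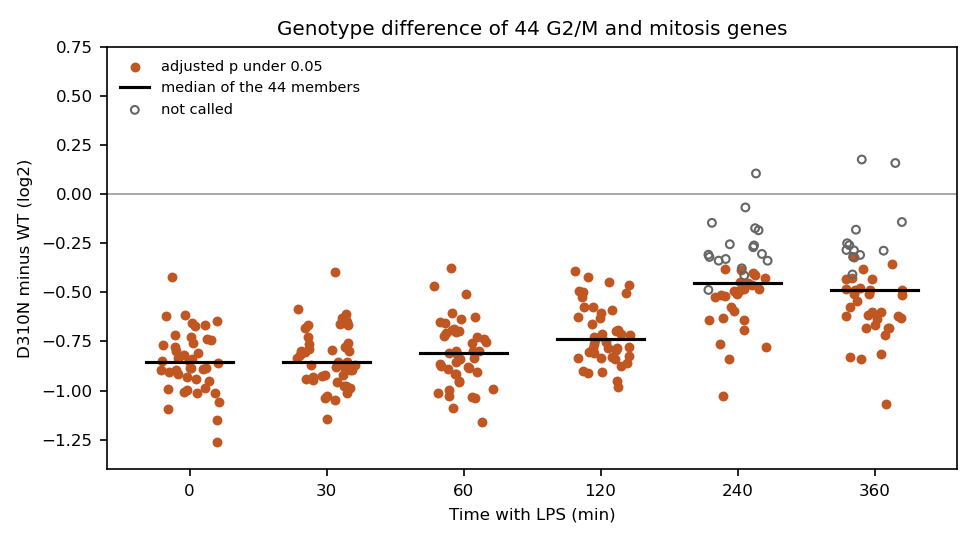
Difference D310N minus WT (log2) of each of the 44 members at each time with LPS (times evenly spaced, not to scale). Filled points are called at an adjusted p under 0.05, open points are not, and black bars are medians, which run from -0.85 at 0 min to -0.45 at 240 min and -0.49 at 360 min.

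Averaged over the 6 times, 44 of 44 were called lower and 0 higher (25.4% and 22.7% of tested genes), with a median of -0.71, or 61.3% of WT, against 0.00 over all tested genes. The largest average difference was that of Ube2c, at -0.92 ± 0.05, followed by Ccnb2 (-0.90 ± 0.06), Kif4 (-0.90 ± 0.04) and Ccnb1 (-0.89 ± 0.04), which lie within 1 SE of each other. The smallest was that of Tpx2, at -0.42 ± 0.04, but without WT at 360 min replicate 1 Tpx2 gave -0.46 and the smallest was that of Bub1b, at -0.43. Kif18b, which had the largest difference at 0 min, averaged -0.73 ± 0.05, and Top2a and Mki67 averaged -0.64 ± 0.06 and -0.53 ± 0.05.

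Within each genotype, no mitotic gene had fallen in the first hour of LPS and a few had risen, and most had fallen by 240 min. At 30 min 0 of 44 were called fallen or risen in WT (1.30% and 4.79% of tested genes), with changes from -0.19 to 0.19, and 0 passed an unadjusted p under 0.05 in limma. In D310N 0 of 44 were called (1.48% and 5.16%), with 1 at an unadjusted p under 0.05 and changes from -0.14 to 0.36. Of the 11656 tested genes 1959 in WT and 1813 in D310N passed an unadjusted p under 0.05 in either direction. At 60 min 3 had risen and 0 fallen in WT (20.1% and 17.1%), and 7 had risen and 0 fallen in D310N (21.3% and 17.2%), shares of members below the background. At an unadjusted p under 0.05, 0 had fallen in either genotype. Of the 11656 tested genes 5126 in WT and 5226 in D310N passed in either direction. In WT the risen ones were Mki67, Ccnb1 (0.28 ± 0.09, lost without WT at 0 min replicate 1, adjusted p = 0.0612) and Cenpe (0.28 ± 0.09, lost without the same library, adjusted p = 0.0929, or WT at 60 min replicate 3, adjusted p = 0.0556). In D310N they were Mki67, Ccnb1 (0.34 ± 0.09), Cenpe (0.33 ± 0.09) and Kif4 (0.33 ± 0.10), which kept their calls when any 1 library was left out, and Tpx2 (0.27 ± 0.10), Prc1 (0.36 ± 0.13) and Kif23 (0.32 ± 0.13), each lost without D310N at 60 min replicate 3 (adjusted p = 0.152, 0.14 and 0.163) or other single libraries of that comparison.

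Mki67 rose before it fell. In WT it went from 11.11, 11.20 and 11.27 at 0 min to 11.91, 11.96 and 12.09 at 60 min (0.79 ± 0.12, adjusted p = 3.5e-06), without overlap. In D310N it went from 10.28, 10.37 and 10.52 to 11.59, 11.59 and 11.65 (1.23 ± 0.12, adjusted p = 9.0e-10), also without overlap. It was still higher at 120 min, by 0.57 ± 0.12 in WT and 0.93 ± 0.12 in D310N. At 240 min it was below its start in WT (-0.32 ± 0.12, adjusted p = 0.0203, lost without WT at 0 min replicate 3, adjusted p = 0.0709, or WT at 240 min replicate 2, adjusted p = 0.061) and not called in D310N (0.17 ± 0.12). By 360 min it had fallen in both, to 10.78, 10.03 and 10.25 in WT (-0.84 ± 0.12) and 9.63, 9.96 and 9.67 in D310N (-0.63 ± 0.12). The difference of the 60 min rise between genotypes was 0.43 ± 0.18 and was not called (adjusted p = 1).

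At 120 min 29 of 44 had fallen in WT (34.2% of tested genes) and 2 had risen (32.4%), with a median of -0.37. Kif18b fell furthest, to 5.71, 5.82 and 5.41 (-1.38 ± 0.12), well below its 0 min libraries. Besides Mki67, Kif4 rose by 0.25 ± 0.10, a call lost without WT at 0 min replicate 3 or WT at 120 min replicate 1 or 2. In D310N 24 of 44 had fallen (32.1%) and 3 had risen (31.9%), with a median of -0.29. Ect2 fell furthest there, from 7.25, 7.26 and 7.22 to 6.34, 6.22 and 6.55 (-0.87 ± 0.11), without overlap. The risen ones were Mki67, Kif4 (0.33 ± 0.10, lost without D310N at 120 min replicate 3, adjusted p = 0.0514) and Melk (0.32 ± 0.12, adjusted p = 0.0187), the last lost without D310N at 0 min replicate 1 or at 120 min replicate 3. Kinetochore genes had fallen in 6 of 7 in both genotypes at this time, cyclins and factors in 4 of 7 in WT and 3 of 7 in D310N, and chromosome structure genes in 2 of 5 in both. Whether these shares differ between role groups was not tested.

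By 240 min 41 of 44 had fallen and 3 risen in WT (40.4% and 39.6% of tested genes), with a median of -1.54, or 34.4% of the 0 min level, and in D310N 40 had fallen and 3 risen (40.2% and 39.0%), with a median of -1.11, or 46.2%. At 360 min 41 had fallen and 2 risen in WT (41.0% and 39.3%) and likewise 41 and 2 in D310N (41.0% and 39.0%), with medians of -1.998 and -1.72, or 25.0% and 30.3% of the 0 min level. The median over all tested genes was between -0.02 and -0.03 in these 4 comparisons. Without WT at 360 min replicate 1, 41 had fallen in WT at 360 min (40.6%) with a median of -2.22.

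The cyclins and factors had fallen in 7 of 7 at 360 min in both genotypes. Ccnb1 ended at 6.46, 6.41 and 6.28 in WT (-2.19 ± 0.09) and 5.82, 5.95 and 5.92 in D310N (-1.52 ± 0.09). Ccnb2 ended at 7.23, 6.44 and 6.59 in WT (-1.43 ± 0.14) and 5.93, 6.26 and 6.54 in D310N (-0.84 ± 0.14). Neither cyclin's late libraries overlapped those at 0 min of the same genotype. Cdk1 ended at 7.82, 7.01 and 7.11 in WT (-1.70 ± 0.11) and 6.58, 6.66 and 6.69 in D310N (-1.72 ± 0.11), and Foxm1 at 6.92, 6.29 and 6.13 (-1.93 ± 0.13) and 6.05, 6.07 and 6.27 (-1.33 ± 0.13). Ccna2 fell by 2.78 ± 0.17 in WT, the most of these genes there, and Mybl2 fell by 2.37 ± 0.13 in D310N.

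All 6 mitotic kinases had fallen at 360 min in both genotypes, with medians of -2.02 in WT and -1.55 in D310N. Plk1 ended at 5.89, 5.30 and 4.82 in WT (-2.39 ± 0.15) and 4.82, 4.88 and 5.08 in D310N (-1.79 ± 0.15). Aurkb ended at 6.25, 5.76 and 5.48 in WT (-2.22 ± 0.12) and 5.21, 5.44 and 5.38 in D310N (-1.81 ± 0.12). Both were below every 0 min library of their genotype. The 5 checkpoint, APC/C and separase genes had all fallen too. Cdc20 ended at 5.26, 4.94 and 4.83 in WT (-2.56 ± 0.11) and 4.62, 4.86 and 4.49 in D310N (-1.91 ± 0.11), and Bub1b at 6.82, 5.95 and 5.98 (-2.64 ± 0.13) and 6.05, 6.02 and 6.26 (-1.95 ± 0.13). Ube2c changed less, by -1.24 ± 0.13 in WT and -0.97 ± 0.13 in D310N.

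Among kinetochore genes 6 of 7 had fallen at 360 min in both genotypes. Cenpf showed the largest change of the 44 in WT, from 8.16, 8.36 and 8.38 to 5.52, 5.42 and 5.20 (-2.92 ± 0.13), but without WT at 360 min replicate 1 the largest was that of Ccna2, at -3.13. Kif18b ended at 4.47, 4.21 and 4.31 in WT (-2.71 ± 0.12) and 3.79, 4.24 and 4.04 in D310N (-1.75 ± 0.12), and Ndc80 changed by -2.05 ± 0.09 and -1.78 ± 0.09. These genes were lower after LPS in every library. Among midzone genes 8 of 9 had fallen in both genotypes. Kif23 had the largest fall of the 44 in WT at 240 min, from 8.93, 8.99 and 8.92 to 5.86, 6.1999 and 6.41 (-2.79 ± 0.13), and had the largest fall of the 44 in D310N at 360 min, from 7.85, 7.98 and 7.99 to 5.67, 5.70 and 5.25 (-2.40 ± 0.13). Prc1 ended at 7.71, 6.87 and 6.91 in WT (-2.09 ± 0.13) and 6.58, 6.81 and 6.64 in D310N (-1.57 ± 0.13), and Birc5 changed by -1.44 ± 0.13 and -1.37 ± 0.13.

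Chromosome structure genes had fallen in 5 of 5 at 360 min in both genotypes. Top2a ended at 9.78, 8.73 and 8.76 in WT (-1.98 ± 0.15, and -2.33 ± 0.09 without WT replicate 1) and 8.45, 8.74 and 8.56 in D310N (-1.72 ± 0.15). Among spindle assembly genes 4 of 5 had fallen. Kif11 ended at 7.43, 6.69 and 6.59 in WT (-2.38 ± 0.12) and 6.38, 6.40 and 6.49 in D310N (-1.97 ± 0.12). For both genes the late libraries were all below those at 0 min.

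**Figure D3:**
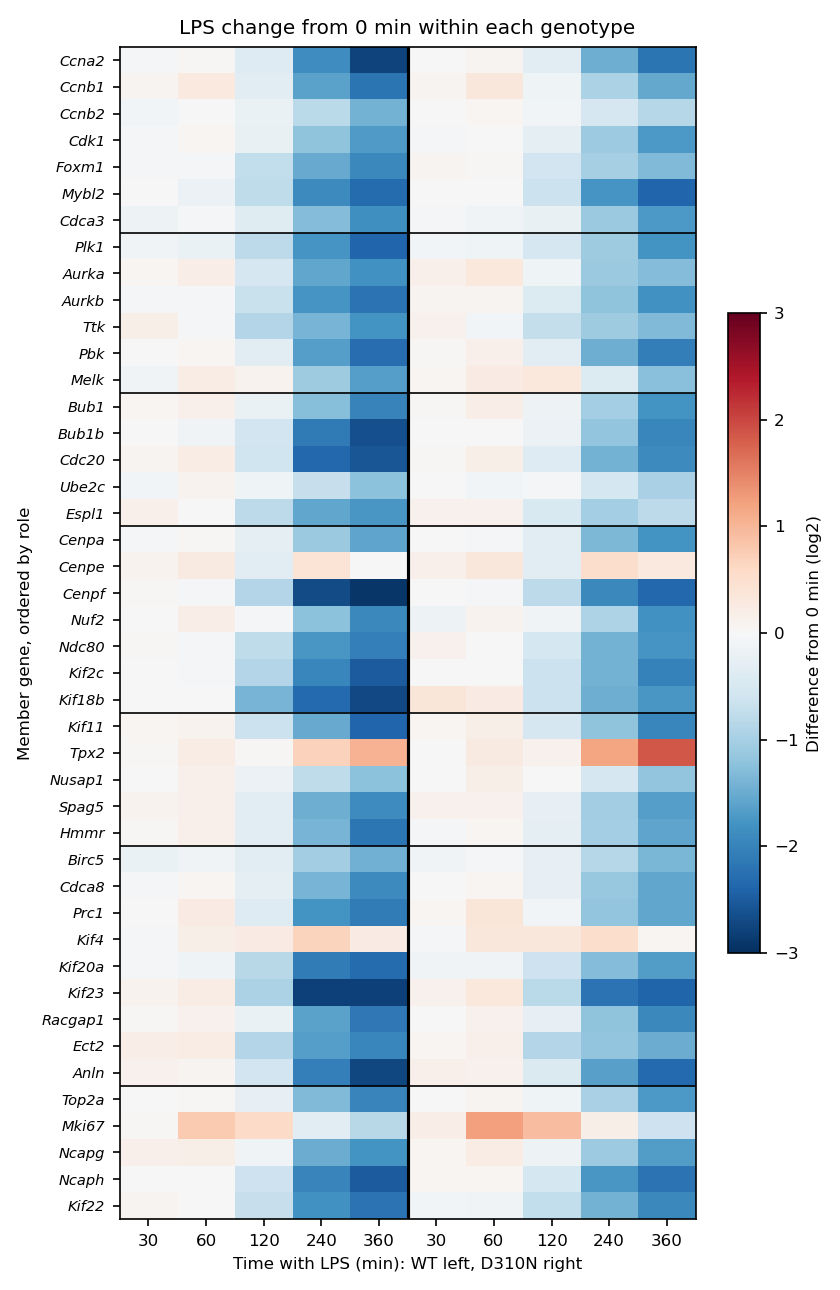
Change from 0 min (log2, colour bar from -3 to 3) of the 44 members at each LPS time, WT in the left 5 columns and D310N in the right 5, with black lines between role groups. Nearly all members turn blue at 240 and 360 min, and Tpx2, Cenpe and Kif4 stand out as red at 240 min.

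The genes that went against the others at the late times were Tpx2, Kif4 and Cenpe, each a spindle or microtubule motor gene. Tpx2 (chr2:152847964-152895321, plus strand) rose from 9.48, 9.61 and 9.63 to 10.27, 10.34 and 10.17 at 240 min in WT (0.69 ± 0.10) and to 10.13, 10.96 and 10.74 at 360 min (1.04 ± 0.10, and 1.28 ± 0.06 without replicate 1). In D310N it rose from 8.93, 8.88 and 8.93 to 10.16, 10.03 and 10.08 (1.17 ± 0.10) and then to 10.77, 10.78 and 10.82 (1.87 ± 0.10). Its libraries after 240 and 360 min were all above those at 0 min in both genotypes. The genotypes, separate at 0 min, overlapped at 360 min.

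Kif4 (chrX:100625737-100727214, plus strand) rose at 240 min from 8.27, 8.29 and 8.19 to 9.02, 9.01 and 8.74 in WT (0.67 ± 0.10) and from 7.32, 7.32 and 7.46 to 7.76, 8.06 and 7.86 in D310N (0.53 ± 0.10), without overlap. At 360 min it was 0.24 ± 0.10 above its start in WT, a call lost without WT at 360 min replicate 1 (0.10, adjusted p = 0.335) or WT at 0 min replicate 3 (0.21, adjusted p = 0.0863), and 0.05 ± 0.10 in D310N. Its exons share 832 bases with those of Pdzd11 on the opposite strand. Cenpe (chr3:135212537-135273611, plus strand) moved down at 120 min, by -0.31 ± 0.09 in WT and -0.34 ± 0.09 in D310N, and up at 240 min, by 0.41 ± 0.09 and 0.54 ± 0.09. At 240 min it stood at 9.88, 9.62 and 9.76 in WT and 9.16, 9.15 and 9.17 in D310N. At 360 min it was 0.01 ± 0.09 from its start in WT, not called, and 0.30 ± 0.09 above it in D310N (adjusted p = 0.00467).

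**Figure D4:**
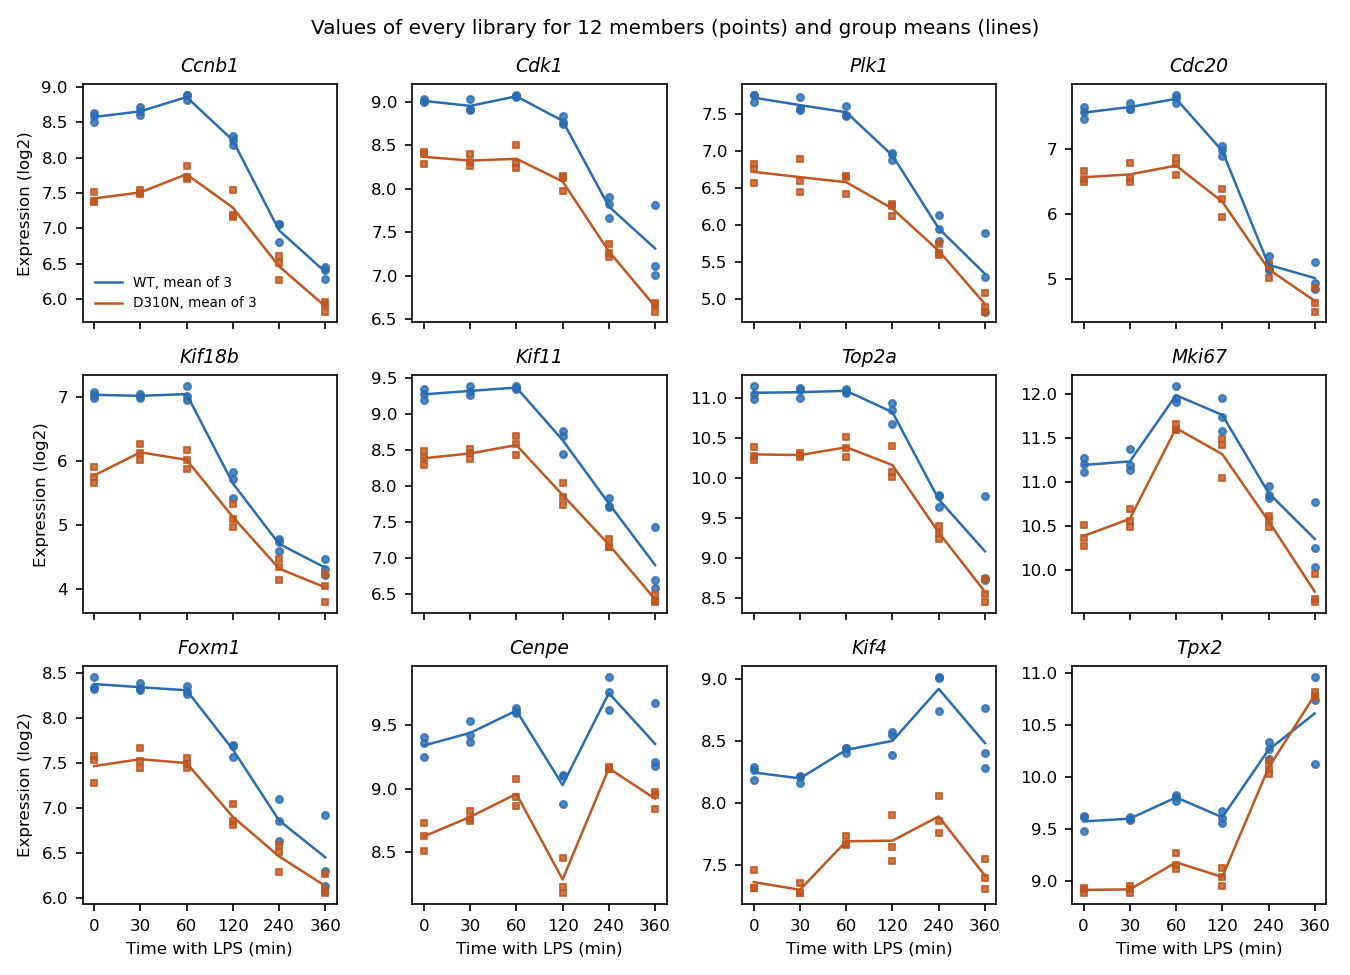
Log2 expression of 12 members in every library (points, 3 per group) with group means (lines), WT in blue circles and D310N in orange squares, over the LPS times (evenly spaced, not to scale). Ccnb1, Cdk1, Plk1, Cdc20, Kif18b, Kif11, Top2a and Foxm1 decline after 60 min. The group mean of Mki67 peaks at 60 min in both genotypes, and Tpx2 climbs to 10.77 to 10.82 in D310N at 360 min.

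Whether the LPS response itself differed between genotypes was tested as the D310N response minus the WT response. In limma 0 of 44 were called at 30 min and 0 at 60 min, with 1 at an unadjusted p under 0.05 at each (over all tested genes 0% were called at 30 min, and at 60 min 0.0257% with a more positive and 0.0429% with a more negative response in D310N). At 120 min Kif18b was called, at 0.74 ± 0.17 (0.455% of tested genes in this direction and 0.480% in the other). At 240 min 8 of 44 were called, all with a smaller fall in D310N (0.995%, against 0.952% the other way), and at 360 min 7, all with a more positive response in D310N (1.01%, against 0.995%). At an unadjusted p under 0.05 these counts were 22 and 24, where 1674 and 1672 of the 11656 tested genes passed in either direction. The median over the 44 was 0.40 at 240 min and 0.39 at 360 min. Over the 5 LPS times jointly, 10 of 44 were called (4.84% of tested genes). Without WT at 360 min replicate 1, 29 were called at 360 min (2.93%), 20 at 240 min, and 32 jointly (10.4%). For the 240 min count in that fit the share of all tested genes is not given here.

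Among the checkpoint, APC/C and separase genes, Cdc20, Bub1b and Espl1 were called at both late times. Bub1 (0.26 and 0.22 at 240 and 360 min) and Ube2c (0.15 and 0.27) were called at neither. From 0 to 240 min Cdc20 changed by -2.35 ± 0.11 in WT and -1.42 ± 0.11 in D310N, a difference of 0.93 ± 0.16 (adjusted p = 0.00118). Bub1b changed by -2.12 ± 0.13 and -1.18 ± 0.13, a difference of 0.94 ± 0.18 (adjusted p = 0.00335). Both genes started lower in D310N and ended at overlapping levels. Espl1 went from 8.26, 8.23 and 8.25 to 6.65, 6.30 and 6.52 at 360 min in WT (-1.76 ± 0.10) and from 7.42, 7.54 and 7.33 to 6.52, 6.87 and 6.55 in D310N (-0.78 ± 0.10), a difference of 0.98 ± 0.15 (adjusted p = 0.000248). It was called at 240 min only narrowly (0.55 ± 0.15, adjusted p = 0.045), and leaving out any of several libraries, such as WT at 0 min replicate 1 (adjusted p = 0.0902), ended that call.

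Kif18b was called at 120, 240 and 360 min, with differences of 0.74 ± 0.17, 0.88 ± 0.17 and 0.95 ± 0.17. Its libraries at 360 min, from 3.79 in D310N to 4.47 in WT, were near the filter level of 3.32. Whether the unnamed transformation shrank such low values was not tested. The call at 120 min was lost without any of 6 libraries, among them WT at 120 min replicate 3 (0.62, adjusted p = 0.0846). Ccnb1 was called at 240 and 360 min, at 0.64 ± 0.12 and 0.66 ± 0.12, and Kif20a at 0.79 ± 0.15 and 0.62 ± 0.15. Its exons share 1271 bases with Cdc23 on the opposite strand. Melk (0.64, adjusted p = 0.0361) and Cenpf (0.73, adjusted p = 0.0364) were called at 240 min only, each lost without D310N at 0 min replicate 1 (adjusted p = 0.121 and 0.106), and Tpx2 at 360 min only, where it rose more in D310N (0.84 ± 0.15, adjusted p = 0.00107). Without WT at 360 min replicate 1 this Tpx2 difference was smaller, at 0.59 ± 0.08, and still called. Hmmr and Ect2 were called only jointly, at adjusted p = 0.0272 and 0.0181. At 360 min the calls of Bub1b, Cdc20 and Kif20a were lost without any of 10, 6 and 5 single libraries, with adjusted p up to 0.114, 0.0813 and 0.0952. In a fit of only the 4 groups compared 2 members were called at 360 min, and the share of all tested genes in that fit is not given here. Cdk1, in contrast, gave 0.13 ± 0.16 and -0.02 ± 0.16, neither called.

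The members tended to vary together within groups. How far other tested genes did so was not counted. The mean of the 44 in each library was 8.45, 8.50 and 8.45 in WT at 0 min against 7.57, 7.58 and 7.69 in D310N, and 7.04, 7.07 and 6.98 against 6.56, 6.57 and 6.62 at 240 min. D310N libraries at 360 min stood at 6.02, 6.14 and 6.12. At every time all WT libraries were above all D310N libraries by this measure. D310N replicate 3 was above its group's mean in 39, 38, 42 and 40 of 44 members at 0, 30, 60 and 120 min. As a description over the 36 libraries, each member's deviation from its group mean was set against the mean deviation of the other members, and Pearson's r ranged from -0.62 for Tpx2 to 0.95 for Top2a with a median of 0.78. Without the 3 WT libraries at 360 min the median was 0.57 over 33 libraries, from 0.05 for Espl1 to 0.83 for Prc1. The r of Tpx2 was then positive, at 0.64. Libraries here share normalisation and unknown depth.

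**Figure D5:**
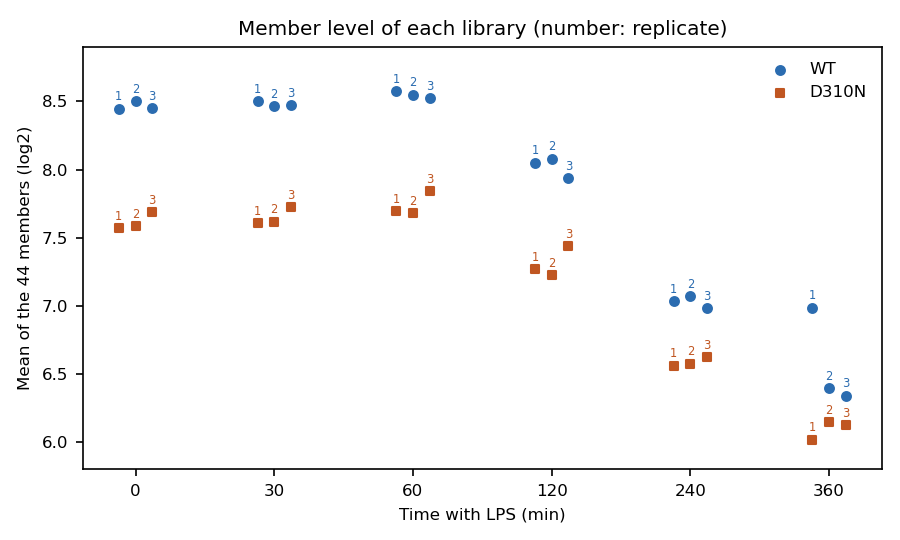
Mean log2 value of the 44 members in each of the 36 libraries, WT in blue circles and D310N in orange squares, numbered by replicate, over the LPS times (evenly spaced, not to scale). WT at 360 min replicate 1, at 6.99, stands above replicates 2 and 3, at 6.40 and 6.34.

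Members with and without TTTGAA in the promoter window had like values. Those without it may hold another form of the CHR, so the split does not separate promoters with and without a CHR. At 0 min the median genotype difference was -0.86 in the 29 members with a match and -0.80 in the 9 without, and at 360 min the median LPS change in WT was -1.98 and -1.94. Ccnb1, whose printed promoter holds no TTTGAA, had one of the larger genotype differences, and Cdk1, with 2 matches, one of the smaller. The split was described and not tested.

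The lists of related genes, chosen with earlier results of these data known, are read against the shares of all tested genes: 7.09% lower and 3.64% higher in D310N at 0 min, 25.4% and 22.7% on average, and 41.0% fallen and 39.3% risen in WT at 360 min. Of 68 other mitotic genes 59 were lower and 0 higher at 0 min, with a median of -0.66, and over all times 65 were lower on average, 3 were higher and the median was -0.55. Ckap2l, a spindle protein (-0.75 ± 0.04), and Iqgap3, a scaffold of dividing cells (-0.80 ± 0.04), had the smallest adjusted p among those lower. Zwint, a kinetochore protein (0.07 ± 0.01), and Psrc1, a spindle protein (0.17 ± 0.04), had it among those higher. At 360 min of LPS in WT 61 of 68 had fallen and 3 risen, with a median of -1.56. Cdc25b, the phosphatase that activates Cdk1, and Fbxo5, an APC/C inhibitor, changed by -2.79 ± 0.09 and -2.82 ± 0.12, while Pttg1, the securin, rose by 2.02 ± 0.08 and Psrc1 by 0.79 ± 0.10.

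Subunits of the APC/C, the ubiquitin ligase that Cdc20 activates, had medians nearer 0 than the members. Of 15, 2 were lower and 0 higher at 0 min (median -0.06), and over all times 5 lower and 1 higher (median -0.02), led by Anapc5 (-0.21 ± 0.02) and Anapc11 (-0.16 ± 0.02), against Cdc27 (0.05 ± 0.02). With LPS for 360 min in WT 4 had fallen, led by Cdc23 (-0.79 ± 0.06) and Anapc16 (-0.20 ± 0.05), and 3 had risen, led by Cdc27 (0.62 ± 0.05) and Anapc10 (0.63 ± 0.06). The share lower on average was near that of all tested genes (25.4%), and the shares fallen and risen were below theirs (41.0% and 39.3%). Of 11 genes of the DREAM and MuvB complexes 3 were lower and 0 higher at 0 min (median -0.15), and over all times 5 were lower and 2 higher (25.4% and 22.7% of tested genes). Rbl1 (p107) and Lin9 gave -0.18 ± 0.02 and -0.18 ± 0.03, and Rbl2 (p130) and E2f5 0.17 ± 0.02 and 0.11 ± 0.03. In WT at 360 min 7 of the 11 had fallen, among them Tfdp2 (-2.30 ± 0.12) and Tfdp1 (-0.70 ± 0.04), and 3 had risen, among them Rbl1 (1.53 ± 0.06) and E2f5. Without WT at 360 min replicate 1 these counts were 5 and 4.

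Of 16 genes that brake Cdk activity or growth 3 were lower and 1 higher at 0 min, and over all times 8 were lower and 4 higher (25.4% and 22.7% of tested genes), so the share higher was near that of all tested genes. Cdkn2c and Cdkn2d, inhibitors of Cdk4 and Cdk6, gave -0.67 ± 0.03 and -0.46 ± 0.04, and Btg1, an anti-proliferative gene, and Ccng1, a p53 target, 0.17 ± 0.02 and 0.13 ± 0.02. With LPS for 360 min in WT 3 had fallen and 7 risen. Cdkn1a, the Cdk inhibitor p21, rose by 2.19 ± 0.09 and Gadd45b, a stress-response gene, by 2.79 ± 0.05, while Cdkn2c fell by 1.81 ± 0.08 and Gadd45a by 0.88 ± 0.11. Without WT replicate 1 the counts were 5 and 8.

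Genes of G1/S and DNA replication act one phase earlier in the cycle. Of 40, 22 were lower in D310N and 0 higher at 0 min, with a median of -0.31, against 44 of 44 and -0.85 for the mitotic members. Over all times 37 were lower on average and 1 higher, the median being -0.26, from Mcm10, a replication initiation factor (-0.64 ± 0.04), and Rrm2, which makes DNA precursors (-0.64 ± 0.04), to Pcna, the sliding clamp (0.07 ± 0.02). At 360 min of LPS in WT 35 of 40 had fallen and 1 had risen, with a median of -1.62. Uhrf1, which maintains DNA methylation, changed by -2.69 ± 0.07 and Mcm3, of the replication helicase, by -2.02 ± 0.06, while Rfc3, of the clamp loader, rose by 0.94 ± 0.06. The difference between the 2 lists was described and not tested.

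The labelled cell type was present in both genotypes. All 10 macrophage markers passed the filter, with a summed linear level between 250100 and 308600 in WT and between 235200 and 306800 in D310N. At 0 min 1 was lower and 1 higher in D310N, against 7.09% and 3.64% of tested genes, and over all times 7 were lower and 3 higher (median -0.09), against 25.4% and 22.7%. Of 9 progenitor markers in the table Flt3, Mpo, Elane, Prtn3, Ms4a3 and Myb were below the filter, and the summed level was 81.4 to 280 in WT and 62.3 to 182 in D310N. Kit, the stem cell factor receptor, was lower in D310N like the mitotic members, by -1.06 ± 0.21 at 0 min and -0.78 ± 0.08 on average, while Cd34 was higher (0.31 ± 0.07) and Gfi1 lower (-0.30 ± 0.05) on average. Of 9 neutrophil markers Ly6g, Camp, Ngp, Ltf, Retnlg and Cxcr2 were below the filter, and the other 3 were higher in D310N on average, with a summed level of 225 to 368 against 152 to 250 in WT. Of the erythroid, B cell, T and NK cell, dendritic and stromal lists 1, 1, 1, 3 and 2 genes passed, of which on average 1, 1, 0, 1 and 1 were higher and 0, 0, 1, 1 and 0 lower in D310N. The part of these cells in the result was not tested.

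Some members share exons with a neighbour on the opposite strand, and no source states whether reads were counted by strand. These are Ccna2, Cdc20, Ube2c, Nusap1, Cdca8, Prc1, Kif4, Kif20a and Ncapg, with 53 shared bases for Cdc20 and Elovl1 at the low end and 1271 for Kif20a at the high end. If reads were not counted by strand, those in the shared bases of these 9 genes cannot be told from the neighbour's.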

How the data were processed

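The deposited table holds 1 normalised log2 value per gene and library for 36 libraries. How it was made is known only from the submitters' processing notes, which name STAR 2.5.2a, RSEM 1.2.31, DESeq2 1.10.1 and mm10. The transformation behind the log2 values deposited by the authors is not given in the sources used here, and the notes give the tools no role. Values ran from -4.14 to 19.3, and library medians from 6.83 to 7.2, and 0 value columns lacked a sample. Of 16439 entries, 23 named as calendar dates were left out. Genes with at least 10 on the linear scale (3.32 on log2) in at least 3 libraries were tested, 11656 in all.

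limma 3.58.1 (R 4.3.3) was fitted to all 36 libraries with 1 mean per group and an intensity trend, leaving 24 residual degrees of freedom. Tests were two-sided, and a gene was called where its Benjamini-Hochberg adjusted p, taken within 1 comparison, was under 0.05. Contrasts were D310N against WT at each time and on average, each LPS time against 0 min per genotype, and the difference of these responses, at each time and jointly (F test). The design foresaw log2(value + 1) of a linear table. As the table was already log2, it was used as deposited. The script was tested on simulated data.

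Samples were grouped by their titles. Replicate numbers 1 to 3 recur in every group. Deviations of same-numbered libraries from their group means were correlated between the genotypes at each time and between 0 min and each LPS time. The correlation was over 0.1 in all 3 pairs only between 0 and 120 min in D310N (0.131 to 0.373). Within D310N all 3 pairs were also positive between 0 min and 30, 60, 240 and 360 min. They ran from 0.0674 to 0.419, 0.0366 to 0.405, 0.0998 to 0.288 and 0.0886 to 0.249. Every comparison within WT or between genotypes held a correlation below 0. No 2 libraries held identical values. Positions and shared exons are from GENCODE M21 (GRCm38), promoters from RefSeq (GRCm38.p6).

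The members, the related lists and the tests were chosen with earlier results of these data known. Every member may be named. Per-library values are given for 16 fixed members and for the largest and smallest difference of a comparison, and exceptions are named where there are 5 or fewer. Of each related list the 2 genes with the smallest adjusted p in each direction are named, and list medians are descriptions. Cdca3, Mybl2 and other members outside the 16 have differences only. Alternatives were other filters, scalings, pseudocounts, variance models, a replicate block, fits of the compared groups alone, and each library left out.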

Additional observations from a re-analysis of the deposited data

Results flagged for a closer look

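The LPS response of the following members differed between D310N and WT by a test of that difference (limma, adjusted over 11656 genes). Jointly over the 5 LPS times the adjusted p was 0.000138 for Espl1 (separase), 0.000159 for Cdc20 (APC/C activator), 0.000253 for Ccnb1 (cyclin B1), 0.000458 for Tpx2, 0.000623 for Kif20a, 0.000921 for Kif18b and 0.00162 for Bub1b (BubR1). It was 0.0173 for Cenpf, 0.0181 for Ect2 and 0.0272 for Hmmr, the last lost without any of 4 single libraries at 360 min (adjusted p up to 0.0709).

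At single times the response of Kif18b was more positive in D310N at 120 min by 0.74. At 240 min the fall was smaller in D310N for Ccnb1 by 0.64, Melk by 0.64, Bub1b by 0.94, Cdc20 by 0.93, Espl1 by 0.55, Cenpf by 0.73, Kif18b by 0.88 and Kif20a by 0.79. At 360 min it was smaller for Ccnb1 by 0.66, Bub1b by 0.69, Cdc20 by 0.645, Espl1 by 0.98, Kif18b by 0.95 and Kif20a by 0.62, and the rise of Tpx2 was larger by 0.84. All 7 of these at 360 min share the WT group at that time, whose replicate 1 stood apart. Without that replicate the Tpx2 difference was 0.59, and those of Ccnb1, Bub1b, Cdc20, Espl1, Kif18b and Kif20a were larger than given. All genes named started lower in D310N at 0 min. Kif18b at 360 min stood near the filter level, as given above.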

How the results depend on the processing

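The 44 of 44 members lower in D310N on average held under every alternative run. Leaving out 1 library at a time gave 43 to 44 at 0 and at 30 min, 42 to 44 at 60 min, 41 to 44 at 120 min, 19 to 38 at 240 min and 17 to 37 at 360 min. At 360 min the count of 32 became 17 without WT replicate 1, 21 without D310N replicate 1, 20 with library weights and 0 in a fit of the 6 libraries compared. For LPS it gave 24 to 35 fallen at 120 min and 40 to 41 at 240 min in WT, 17 to 29 and 40 in D310N, and 41 at 360 min in both. Differences in response ranged from 0 to 2 members at 120 min, 5 to 20 at 240 min, 4 to 29 at 360 min and 9 to 32 jointly, the highest each without WT at 360 min replicate 1. At 240 min 15 were called with quantile normalisation, 24 with library weights and 20 in a fit of the groups compared, at 360 min 12, 30 and 2, and jointly 16 with quantile normalisation and 34 with weights. Shares of all tested genes are not given beside the counts of this section. These counts are read only as a check on the settings. In fits of the groups compared alone, 3 members had fallen at 60 min in WT and the response of 1 differed at 60 min. No scaling moved the median of all genes by over 0.1 (at most 0.0846), and no member's called difference changed sign. For single members 10811 of the values under settings other than leaving out a library kept direction and call, 219 gained a call and 102 lost it.

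With the replicate number as a replicate block, 44 members were lower in D310N on average. At 120 min 28 had fallen in WT and 24 in D310N, where the correlation passed 0.1 in all 3 pairs. With genotype and number as a random block 12 differed jointly, 10 at 240 min and 8 at 360 min. The block changed no count by over 1.5 times. Depth is unknown, so its effect on these counts could not be assessed.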
